A study of Homo sapiens with 2 samples.

Results

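CEACAM1, CEACAM5, CEACAM6 and CEACAM7 are 4 carcinoembryonic antigen-related cell adhesion molecules, and they are the 4 of 36601 listed genes described here. They were matched by gene symbol, each to a single row, and were followed through transcript counts, shares of cells and joint detection in 2 single-cell RNA libraries. The cells came from colon organoids differentiated from 1383D6, an established line of human induced pluripotent stem cells. In the library named 3CK the organoids had been kept for 8 days with IL-1β, TNF-α and IFN-γ, and in the library named CNT they had not. Both groups went through the same differentiation per the labels' protocols, with Activin A and Y-27632 first, then FGF2, then EGF, Forskolin, PD98059 and 5-Aza-2'-Deoxycytidine in Matrigel (the protocol text breaks off within the name of a further compound). The series title presents the cytokine treatment as a model of ulcerative colitis. About 8300 dissociated cells were loaded per library, and each group is 1 library of 1 line. No test across samples was therefore possible. Every interval below is a 95% interval for counting error only, and these 4 genes had been chosen with their values in these libraries known, so their levels are a description.

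Members of this family are heavily glycosylated surface proteins of the immunoglobulin superfamily. CEACAM1 crosses the membrane and, in its long form, carries inhibitory tyrosine motifs that recruit SHP phosphatases, whereas CEACAM5 (the tumour marker CEA), CEACAM6 and CEACAM7 are held in the outer leaflet by a glycosylphosphatidylinositol (GPI) anchor. In normal colon they sit in the apical glycocalyx of mature surface colonocytes, where CEACAM1, CEACAM5 and CEACAM6 also serve as docking sites for several bacteria, and CEACAM7 is largely restricted to differentiated colonic epithelium.

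All 4 genes lie on the long arm of chromosome 19. In the GENCODE v44 annotation of GRCh38 they occupy chr19:41673303-41706976 on the minus strand (CEACAM7, 5 exons in its representative transcript), chr19:41708585-41730433 on the plus strand (CEACAM5, 10 exons), chr19:41750977-41772211 on the plus strand (CEACAM6, 6 exons) and chr19:42507304-42561234 on the minus strand (CEACAM1, 9 exons). By their RefSeq start sites CEACAM7 and CEACAM6 are 20.4 kb and 46.9 kb from CEACAM5, with CEACAM7 facing away, and CEACAM1 is 819.9 kb away. The 250 bases before each RefSeq start (GRCh38.p14, gene strand, 5′ to 3′) are shown because the 4 genes were all higher in 3CK and the sequences can be compared base by base. They are chr19:41688271-41688520 for CEACAM7, chr19:41708376-41708625 for CEACAM5, chr19:41755280-41755529 for CEACAM6 and chr19:42528482-42528731 for CEACAM1. Capitals mark the match to the interferon-stimulated response element core in CEACAM1 and, in the other 3, the stretch that aligns with it.
CEACAM7: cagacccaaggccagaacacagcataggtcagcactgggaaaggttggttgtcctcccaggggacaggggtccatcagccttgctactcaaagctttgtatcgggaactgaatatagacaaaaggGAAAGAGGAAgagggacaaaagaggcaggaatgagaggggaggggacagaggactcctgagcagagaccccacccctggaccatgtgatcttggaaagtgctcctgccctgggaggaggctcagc
CEACAM5: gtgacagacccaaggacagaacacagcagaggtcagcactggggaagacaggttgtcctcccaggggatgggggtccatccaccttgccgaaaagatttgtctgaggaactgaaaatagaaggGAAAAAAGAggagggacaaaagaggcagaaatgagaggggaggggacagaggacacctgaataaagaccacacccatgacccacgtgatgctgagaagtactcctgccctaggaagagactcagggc
CEACAM6: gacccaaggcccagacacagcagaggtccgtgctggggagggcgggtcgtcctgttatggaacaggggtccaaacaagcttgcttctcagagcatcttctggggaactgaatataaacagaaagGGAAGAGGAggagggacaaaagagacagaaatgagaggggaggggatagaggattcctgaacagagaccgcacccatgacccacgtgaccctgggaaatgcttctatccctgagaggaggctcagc
CEACAM1: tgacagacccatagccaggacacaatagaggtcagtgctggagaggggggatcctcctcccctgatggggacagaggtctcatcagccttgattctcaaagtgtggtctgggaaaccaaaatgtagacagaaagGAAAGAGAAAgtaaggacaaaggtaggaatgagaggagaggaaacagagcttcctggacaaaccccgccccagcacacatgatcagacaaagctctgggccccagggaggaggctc

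Over 300-base windows that also take in the first 50 transcribed bases, the promoters were 70.7% (CEACAM1 and CEACAM5) to 84.7% (CEACAM5 and CEACAM7) identical. The response element core (GAAA, 2 bases of any kind, GAAA), searched on both strands, matched in CEACAM1 alone, as GAAAGAGAAA beginning 116 bases before the start, and 3.57% of the 35116 promoters in the RefSeq table hold such a match. The aligned stretch was GAAAGAGGAA in CEACAM7, with 9 of 10 bases identical, GAAAAAAGA in CEACAM5 and GGAAGAGGA in CEACAM6, each with 7 of 9 aligned bases identical. No exact match was found for the interferon-gamma activated site TTCNNNGAA (7.66% of all promoters), the NF-kB motif (GGGA, 1 base of any kind, TTTCC; 0.558%) or the CDX motif TTTATNG (9.73%). A match or its absence describes these letters in these windows and says nothing of binding.

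Similar sequence also bears on counting. Representative transcripts of the 4 genes share unbroken runs of up to 71 bases (CEACAM1 and CEACAM6), but over their last 500 bases, nearest to where a 3′ library reads, the longest shared run in any pair was 21 bases (CEACAM6 and CEACAM7). CEACAM1 overlaps the opposite-strand RNA LIPE-AS1 and CEACAM6 overlaps the opposite-strand RNA AC243967.2. The strand setting of the authors' counting is not given in the sources at hand. A contribution between these pairs was not tested. Reads from the long and short forms of CEACAM1 are not separated in these counts.

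After removal of poor barcodes and probable doublets, 2487 CNT and 1398 3CK cells remained, with 101831571 and 91860414 unique molecular identifiers (UMIs, each standing for 1 captured transcript) and medians of 28911 and 62746 UMIs per cell. The libraries shared no barcode. Levels are CPM, the UMIs of a gene per 1000000 UMIs of all genes. A 3′ library gives about 1 tag per transcript, so CPM is not divided by gene length, and levels of different genes are compared on that scale only. Epithelial cells were those with at least 2 EPCAM UMIs per 10000, 1660 in CNT and 1016 in 3CK. Mesenchymal cells, chosen as the comparator for these genes, had under 0.5 EPCAM and at least 10 collagen UMIs per 10000, 491 and 79 cells. The hindgut factor CDX2 was present in the epithelial cells at 80.6 CPM (CNT) and 83.3 CPM (3CK), but the liver and visceral endoderm transcript TTR was far higher, at 64857 and 19491 CPM. The goblet mucin MUC2 was at 1.04 and 0.642 CPM.

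All 4 members were higher in the cytokine-treated library. CEACAM6, the most abundant, had 19916 UMIs in CNT (196 CPM, interval 193 to 198) and 51702 in 3CK (563 CPM, 558 to 568), which is 2.88-fold (2.83 to 2.93). CEACAM5 went from 2945 UMIs (28.9 CPM) to 22810 (248 CPM), 8.59-fold (8.26 to 8.92). CEACAM1 had 3007 UMIs (29.5 CPM) and 11295 (123 CPM), 4.16-fold (4.00 to 4.34). CEACAM6 was highest in both libraries, and the levels of CEACAM1 and CEACAM5 were close to each other in CNT only. In CNT the intervals of CEACAM1 (28.5 to 30.6 CPM) and CEACAM5 (27.9 to 30.0 CPM) overlapped, and in 3CK CEACAM5 lay between CEACAM1 and CEACAM6. CEACAM7, the colonocyte-restricted member, was close to absent in CNT, with 6 UMIs (0.0589 CPM), and had 475 UMIs in 3CK (5.17 CPM, 4.72 to 5.66), 87.8-fold (40.02 to 240.3).

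Of the 17523 genes that reached 1 CPM in CNT or 3CK, 6.96% were higher in 3CK by 2-fold or more and 11.3% were lower by as much, and the median gene had a log2 ratio of -0.05. On the same log2 scale the members stood at 1.52 (CEACAM6), 2.06 (CEACAM1), 3.10 (CEACAM5) and 6.46 (CEACAM7). Of all genes tested, 724 had a larger ratio than CEACAM6, 493 than CEACAM1, 241 than CEACAM5 and 24 than CEACAM7. Since the genes were chosen from this contrast, the 4 of 4 that exceeded 2-fold is a property of the choice.

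Most of these transcripts came from epithelial cells. There the level was 36.2 to 149.6 CPM for CEACAM1 (4.13-fold, 3.96 to 4.31), from 38.2 to 322 CPM for CEACAM5 (8.43-fold, 8.11 to 8.76) and from 258 to 724 CPM for CEACAM6 (2.81-fold, 2.76 to 2.85). For CEACAM7 the epithelial counts were 5 and 472 UMIs, 0.0656 and 6.73 CPM. In epithelial cells 8.48% of 16809 genes were higher by 2-fold or more and 12.1% were lower, with a median log2 ratio of 0.01. The makeup of the family also differed. CEACAM6 held 77.6% (77.1 to 78.1) of the 25334 epithelial CEACAM UMIs in CNT and 60.2% (59.9 to 60.5) of 84352 in 3CK, while the share of CEACAM5 went from 11.5% to 26.8% and that of CEACAM1 from 10.9% to 12.4%. Summed over the 4 genes, the family level was 333 CPM in CNT and 1203 CPM in 3CK.

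Mesenchymal cells were taken as the background. Whether their CEACAM UMIs were their own or carried over from other cells was not tested. CEACAM6 was at 4.77 CPM (CNT) and 9.26 CPM (3CK) there, CEACAM5 at 0.774 and 1.40 CPM, and CEACAM7 at 1 and 0 UMIs. Relative to these cells, epithelial levels were 54.2-fold (CEACAM6) and 49.4-fold (CEACAM5) higher in CNT, beside 52.9-fold for TTR. In 3CK they were 78.3-fold (CEACAM6) and 231-fold (CEACAM5, interval 117 to 535, on 8 mesenchymal UMIs) higher. CEACAM1 had a smaller ratio, at 5.72 and 8.03 CPM in mesenchymal cells and 6.33-fold (5.16 to 7.84) and 18.6-fold (14.0 to 25.5) higher in epithelial cells, against 85.3-fold for TTR in 3CK. The ratio of 3CK to CNT within mesenchymal cells was 1.40-fold for CEACAM1, with an interval of 0.966 to 2.02 that includes no change, and 1.94-fold (1.35 to 2.78) for CEACAM6.

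**Figure D1:**
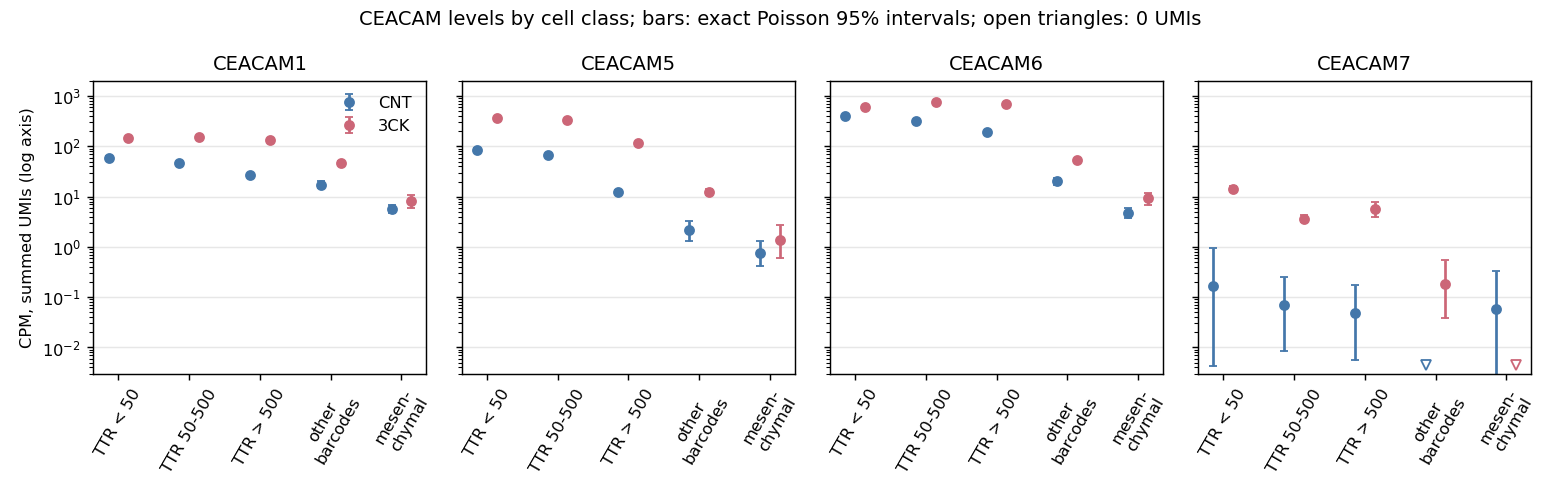
Level of each member (CPM on a log axis, UMIs summed over cells) in 3 epithelial classes by TTR UMIs per 10000, in the remaining barcodes and in mesenchymal cells. Points are the single CNT (blue) and 3CK (red) libraries, bars are exact Poisson 95% intervals, and open triangles mark 0 UMIs. In each epithelial class the 3CK point lies above the CNT point, and CEACAM5 lies at 360.3 and 85.4 CPM at low TTR and at 115 and 12.5 CPM at high TTR.

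TTR differed between the libraries, so the members were also read within fixed TTR classes of the epithelial cells. Under 50 TTR UMIs per 10000 there were 98 CNT and 284 3CK cells, from 50 to 500 there were 942 and 650, and over 500 there were 620 and 82. The CNT middle class was shallow, with a median of 2561 UMIs per cell against 76062 in 3CK, and 551 of its cells had under 10000 UMIs.

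CEACAM1 was higher in 3CK in every TTR class. Its levels in CNT were 58.8, 46.1 and 26.4 CPM from the lowest to the highest TTR class, and in 3CK they were 149, 152 and 133 CPM. The ratios were 2.53-fold (2.26 to 2.84), 3.30-fold (3.11 to 3.51) and 5.03-fold (4.58 to 5.51). In CNT the summed level of the low-TTR class exceeded that of the high-TTR class 2.22-fold (1.96 to 2.51). In 3CK the same pair differed by 1.12-fold (1.03 to 1.21), so the summed CEACAM1 level was nearly even over TTR there. At low TTR in CNT, 10 of the 98 cells held 63.7% of the CEACAM1 UMIs. Among cells with at least 10000 UMIs, the median from low to high TTR was 11.3, 15.8 and 9.92 CPM in CNT. In 3CK it was 94.8, 109 and 81.0 CPM.

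The summed level of CEACAM5 was lower at higher TTR in both libraries. The CNT levels were 85.4, 66.7 and 12.5 CPM and the 3CK levels 360.3, 334 and 115 CPM, with ratios of 4.22-fold (3.85 to 4.63), 5.01-fold (4.77 to 5.25) and 9.15-fold (8.15 to 10.3). The step from the middle to the high-TTR class was 5.33-fold in CNT and 2.92-fold (2.70 to 3.15) in 3CK. These sums rest on few cells. At low TTR in CNT, 10 of the 98 cells held 98.2% of the CEACAM5 UMIs, and 1 cell held 34.0%. Without the highest cell of each library, the low-TTR log2 ratio was 2.51 in place of 2.08. Among cells with at least 10000 UMIs, the median was 0 in each CNT class. In 3CK it was 26.8, 21.5 and 7.76 CPM from low to high TTR. With class boundaries at 100 and 1000 in place of 50 and 500, the high-TTR ratio of CEACAM5 had a log2 value of 0.49 in place of 3.19, on 12 UMIs in 18 3CK cells and 131 UMIs in 221 CNT cells. The middle-class ratio of 2.32 was 2.94 with those boundaries and 3.01 when every cell was weighted equally.

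CEACAM6 showed the smallest ratios of summed levels. It stood at 401, 325 and 193 CPM in CNT and at 604, 780.3 and 691 CPM in 3CK, ratios of 1.51-fold (1.44 to 1.58), 2.40-fold (2.35 to 2.46) and 3.57-fold (3.44 to 3.71). Among cells with at least 10000 UMIs, its median from low to high TTR was 29.7, 71.4 and 55.5 CPM in CNT. In 3CK the median was 303, 520 and 640 CPM. The CNT medians thus did not follow the summed levels. At low TTR, 10 of the 98 CNT cells held 67.8% of the CEACAM6 UMIs, and the ratio of summed levels did not reach 2-fold. Cells next to that boundary weighed on this value, since 19 of the 98 CNT cells, with 40 to 50 TTR UMIs per 10000, held 856 of the 2347 CEACAM6 UMIs of the class. With the class limited to TTR under 40, a setting added after seeing the data, the log2 ratio was 0.99 in place of 0.59 (CEACAM1 1.72 in place of 1.34, CEACAM5 2.49 in place of 2.08). In the whole class the 3CK level was below that of the middle class (log2 ratio -0.37, interval -0.40 to -0.34). With boundaries at 25 and 250 the middle class also fell short of 2-fold, at a log2 ratio of 0.90. CEACAM7 had 1, 2 and 2 UMIs in CNT and 273, 165 and 34 UMIs in 3CK, or 14.2, 3.67 and 5.65 CPM. At low TTR 128 of the 273 UMIs came from 1 cell, and without the highest cell of each library the log2 ratio in that class was 3.86 in place of 6.38, as a bound because no CNT UMI then remains. At high TTR 27 of the 34 UMIs came from 1 cell, and the log2 ratio was 5.63 without the highest cells in place of 6.89. These CEACAM7 ratios stand on so few CNT UMIs that their size varied, with 5.25 at low TTR for class boundaries at 25 and 250 and 7.40 to 7.96 in the 3 classes for equal weight per cell.

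Past 2-fold higher were 3 of 4 members at low TTR, where 7.13% of genes were, 4 of 4 in the middle class (5.78%) and 4 of 4 at high TTR (5.5%). The median log2 ratios of all genes were -0.18, -0.34 and -0.19 in these classes. Trimmed-mean (TMM) scaling raised them by 0.22, 0.40 and 0.13 and raised each member's ratio by as much. Whether the ratios differ between TTR classes was not tested, since the cells of a class come from 1 library per group.

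Cells just beside the boundaries did not all follow their class. For EPCAM from 1 to 2 per 10000, just outside the epithelial class, CEACAM6 was at 38.5 CPM in 87 CNT cells and 114 CPM in 83 3CK cells, and from 2 to 3, just inside, at 43.2 CPM in 88 and 211 CPM in 71. Between 40 and 50 TTR per 10000, the order of the libraries was turned, with CEACAM6 at 925 CPM in 19 CNT cells and 621 CPM in 48 3CK cells and CEACAM5 at 162 CPM (150 UMIs) and 139.7 CPM (398 UMIs). Between 50 and 60 TTR, CEACAM6 was at 56.3 CPM in 10 CNT cells and 863 CPM in 65 3CK cells, and CEACAM5 at 0 and 544 CPM. On either side of 500 TTR (400 to 500 and 500 to 600) CEACAM6 was at 247 and 295 CPM in CNT and at 760.5 and 712 CPM in 3CK. CEACAM5 was there at 41.8 and 28.9 CPM in CNT and at 302 and 82.4 CPM in 3CK.

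More epithelial cells carried each member after treatment. Because detection depends on depth, every cell was thinned to 5000 UMIs, which left 1062 CNT and 776 3CK epithelial cells and dropped 598 and 240 shallower ones. CEACAM1 was then detected in 134 CNT cells (12.6%, exact binomial interval 10.7 to 14.8) and 350 3CK cells (45.1%, 41.6 to 48.7). CEACAM5 was detected in 51 (4.80%, 3.60 to 6.27) and 249 cells (32.1%, 28.8 to 35.5), and CEACAM6 in 402 (37.9%, 34.9 to 40.8) and 549 cells (70.7%, 67.4 to 73.9). CEACAM7 was in 0 of 1062 CNT cells (exact upper limit 0.347%) and in 14 3CK cells (1.80%, 0.990 to 3.01). Such limits concern cells with a UMI at this depth, not cells that express the gene. At full depth these shares came to 36.1% and 76.4% for CEACAM1, 9.88% and 54.2% for CEACAM5, 54.5% and 84.9% for CEACAM6 and 0.301% and 5.71% for CEACAM7.

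The same measure in mesenchymal cells (269 and 68 after thinning, of median 23969 and 72807 UMIs before it, against 37785 and 72198 in epithelial cells) was 1.12% and 5.88% for CEACAM1, 1.86% and 7.35% for CEACAM6 and 0 cells for the other members, with exact upper limits of 1.36% in CNT and 5.28% in 3CK. Epithelial shares of CEACAM1, CEACAM5 and CEACAM6 were above this background in both libraries. For CEACAM7 the 3CK share of 1.80% lies under the 5.28% upper limit of the 68 mesenchymal cells, although its summed level was at least 12.9-fold that of mesenchymal cells.

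By TTR class the shares followed the levels in part. In 3CK CEACAM5 was in 30.2%, 35.3% and 17.6% of thinned cells from low to high TTR and CEACAM1 in 47.2%, 44.3% and 43.2%. For CEACAM6 the 3CK shares were 62.6%, 74.1% and 75.7%. In CNT the CEACAM6 shares of 33.0%, 41.1% and 36.2% did not follow its levels, and no order is read from them. The CNT shares of CEACAM5 were 7.45%, 6.21% and 3.28%, with overlapping intervals. Those of CEACAM1 in CNT were 13.8%, 16.0% and 9.84%, highest in the middle class.

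**Figure D2:**
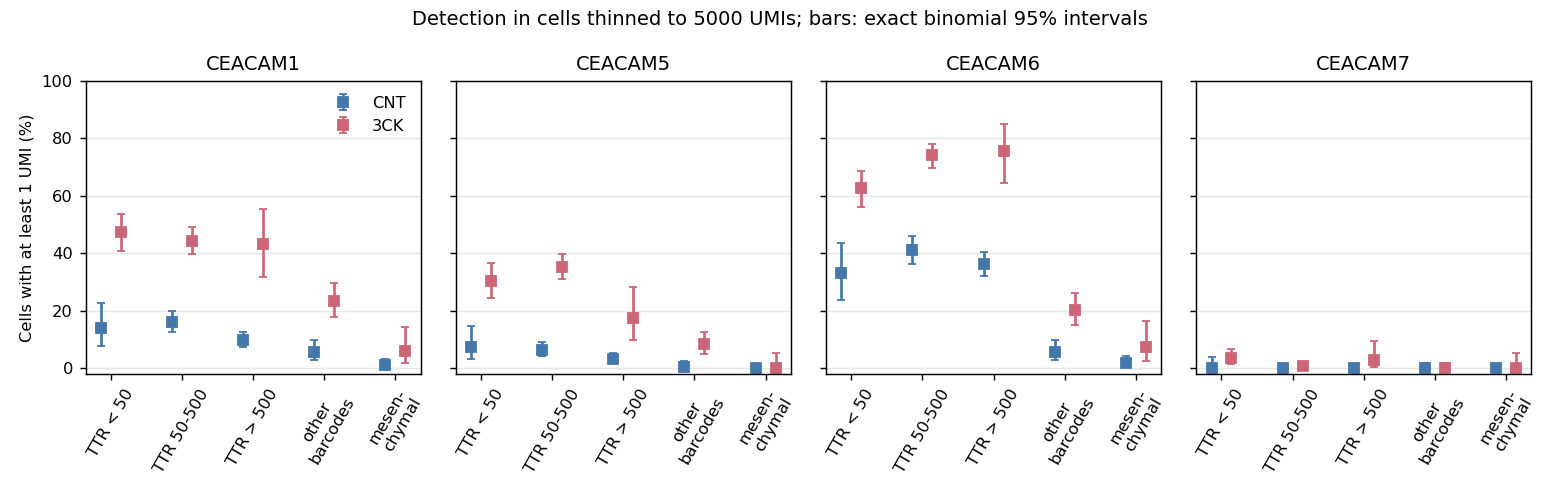
Share of cells (percent, linear axis) with at least 1 UMI of each member after every cell was thinned to 5000 UMIs, in the same cell classes. Squares are the CNT (blue) and 3CK (red) libraries and bars exact binomial 95% intervals. CEACAM6 reaches 75.7% of 3CK cells at high TTR, CEACAM7 stays under 4% in each class (3.40% at most), and mesenchymal cells reach 5.88% for CEACAM1 and 7.35% for CEACAM6 in 3CK.

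The members differed in how evenly cells carried them. In epithelial cells with at least 10000 UMIs (1013 in CNT, 730 in 3CK) the median cell went from 12.2 to 103 CPM of CEACAM1 and from 59.7 to 447 CPM of CEACAM6. The median for CEACAM5 was 0 in CNT and 19.6 CPM in 3CK, while its 90th percentile went from 14.3 to 1030.3 CPM. CEACAM5 was thus the more uneven of the abundant members, and cells above 1000 CPM numbered 15 in CNT and 76 in 3CK for CEACAM5, against 74 and 199 for CEACAM6 and 3 and 11 for CEACAM1. CEACAM1 and CEACAM6 were undetected in 440 and 225 of the CNT cells and in 28 and 27 of the 3CK cells.

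The fewest 3CK epithelial cells that together hold 50% of a member's UMIs were 128 for CEACAM1, 110 for CEACAM6, 33 for CEACAM5 and 3 for CEACAM7. In CNT 10 cells held 50% of the CEACAM5 UMIs, the highest of them 278 UMIs (9.54%). Without the 10 highest cells of each library, the CEACAM5 log2 ratio was 3.78 over all cells and 3.77 in epithelial cells, larger than with them. For CEACAM7 the highest 3CK cell held 27.1% of the 472 epithelial UMIs and the 10 highest held 78.4%. The fold of CEACAM7 therefore rests on few cells, and its log2 ratio over all cells was 5.28 without the 10 highest cells of each library and 7.95 when every cell was weighted equally. In epithelial cells it was 5.21 and 8.09 under these settings and 6.68 otherwise.

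**Figure D3:**
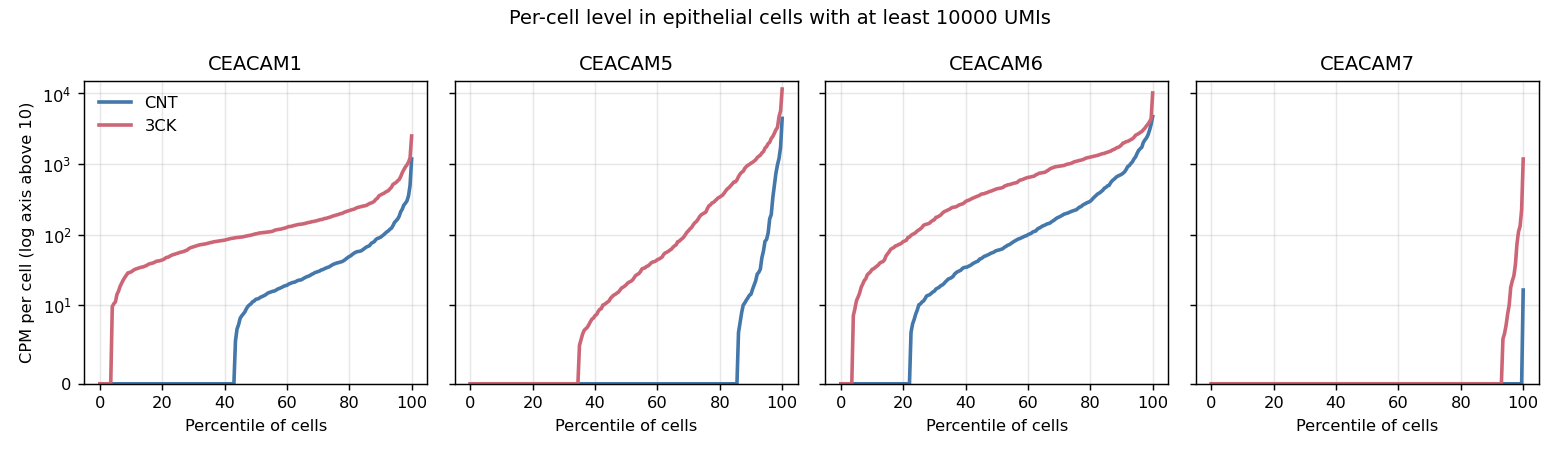
CPM of each member per epithelial cell (log axis above 10, linear below) against the percentile of cells, for cells with at least 10000 UMIs, in CNT (blue, 1013 cells) and 3CK (red, 730 cells). The curves of CEACAM1 and CEACAM6 are raised over nearly the whole range in 3CK, 254 of the 730 3CK cells lie at 0 for CEACAM5, and 679 do so for CEACAM7.

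Cells of the treated library carried more members at once. At 5000 UMIs per cell, 610 of 1062 CNT cells (57.4%) and 138 of 776 3CK cells (17.8%) had none of the 4, 333 (31.4%) and 255 (32.9%) had 1, and 103 (9.70%) and 248 (32.0%) had 2. All 3 of CEACAM1, CEACAM5 and CEACAM6 were in 16 CNT cells (1.51%), and 3 members were in 129 3CK cells (16.6%) and 4 in 6 (0.773%). The commonest combination was CEACAM6 alone in both libraries, 283 CNT and 179 3CK cells, followed by CEACAM1 with CEACAM6, 72 and 139 cells.

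CEACAM5 seldom appeared without CEACAM6. Of the cells with CEACAM5, 47 of 51 in CNT (92.2%) and 225 of 249 in 3CK (90.4%) also had CEACAM6, against 35.1% and 61.5% of the cells without CEACAM5. The product of the shares would give 19.3 and 176 joint cells, and the odds ratios were 21.7 in CNT and 5.87 in 3CK. CEACAM1 was less tied to the others. It was found with CEACAM6 in 88 CNT and 272 3CK cells, where the product of the shares gives 50.7 and 248 (odds ratios 3.74 and 1.88), and with CEACAM5 in 16 and 141 cells, where it gives 6.44 and 112 (3.46 and 1.99). All 14 3CK cells with CEACAM7 had CEACAM6, 11 had CEACAM1 and 8 had CEACAM5. Products of shares assume cells of 1 kind, and epithelial cells here are mixed, so these values describe the cells and test nothing.

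**Figure D4:**
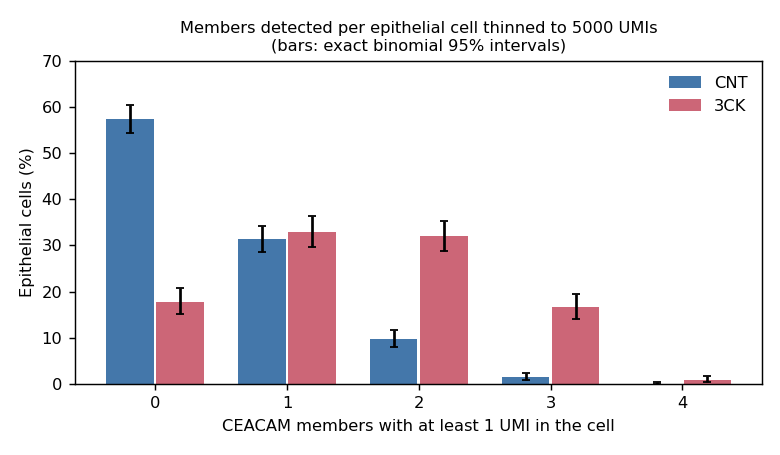
Share of epithelial cells (percent) by the number of members with at least 1 UMI, after thinning to 5000 UMIs, in CNT (blue, 1062 cells) and 3CK (red, 776 cells), with exact binomial 95% intervals. The bars for 0 members stand at 57.4% and 17.8%, those for 2 members at 9.70% and 32.0%, and those for 3 at 1.51% and 16.6%.

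Several surface and differentiation transcripts were higher in cells with more members, and others were not. The genes named here were chosen after their values were seen. In 3CK, from cells with none of the 4 through 1 and 2 to at least 3, the mucin MUC13 was at 81.2, 250.2, 474 and 840 CPM, EPCAM at 661, 825, 1101 and 1636 CPM and the colonocyte keratin KRT20 at 0, 12.5, 38.7 and 81.5 CPM. The chemokine CXCL10 (0.315 CPM in all CNT and 1785 CPM in all 3CK epithelial cells) had no such order, at 1959, 1468, 1281 and 1459 CPM. Other genes raised in 3CK were higher with more members, among them the oxidase DUOX2 at 284, 482, 609.7 and 772 CPM and the immunoglobulin receptor PIGR at 31.9, 136, 153 and 227 CPM. ICAM1 was at 655, 633, 857 and 984 CPM and GBP1 at 358, 341, 381 and 576 CPM, lowest in cells with 1 member. The absorptive genes FABP1 (336, 73.7, 60.5 and 444 CPM), LGALS4 (8.70, 10.2, 6.45 and 60.7 CPM) and RBP2 (0, 0.784, 5.65 and 0 CPM) had no steady order. TTR was nearly level at 18939, 20303, 20172 and 17410 CPM. In CNT, MUC13 was at 67.5, 237, 497 and 500 CPM and KRT20 at 6.23, 40.8, 122 and 188 CPM over the same steps, the last resting on 16 cells. TTR in CNT was lower with more members, unlike in 3CK, at 62602, 60709, 53854 and 31050 CPM, the last in the same 16 cells.

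Likeness to each member was measured across the 730 3CK epithelial cells thinned to 10000 UMIs, as Pearson's r of log2(1 + UMIs) against 6652 genes of at least 20 CPM. The cells share 1 library and 1 depth, and no p is given. For CEACAM6 the 5 highest were the tetraspanin TSPAN8 (0.62), MUC13 (0.55), CEACAM5 (0.54), the selenium carrier SELENOP (0.50) and the galectin LGALS3 (0.44). For CEACAM5 they were CEACAM6 (0.54), TSPAN8 (0.47), MUC13 (0.43), the phospholipase PLA2G2A (0.41) and CEACAM1 (0.40), and for CEACAM1 they were MUC13 (0.43), CEACAM5 (0.40), CEACAM6 (0.39), STOM (0.32) and TSPAN8 (0.32). MUC13 and TSPAN8, both membrane proteins, stood among the 5 for each of these 3 members. CEACAM5 and CEACAM6 were on each other's list, as were CEACAM5 and CEACAM1, whereas CEACAM6 was on that of CEACAM1 but not the reverse.

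The 3 lowest values for CEACAM6 were the intermediate filament VIM (-0.34), NPPB (-0.31) and ANKRD1 (-0.29). VIM, LDHB and ANKRD1 were the lowest for both CEACAM5 (-0.28, -0.25 and -0.25) and CEACAM1 (-0.25, -0.21 and -0.22). For CEACAM7 the highest were TNIP3 (0.23), EPS8L3 (0.21), SLC40A1 (0.19), CEACAM5 (0.18) and TMPRSS2 (0.18), weak values in sparse counts that are no finding. In the 1013 CNT cells, CEACAM6 was again closest to TSPAN8 (0.62), followed by the colonocyte gene PHGR1 (0.61) and MUC13 (0.53). Correlation with CXCL10 in 3CK was -0.04 for CEACAM1, 0.01 for CEACAM5 and -0.18 for CEACAM6. For LCN2, an antimicrobial protein also raised in 3CK, it was 0.19, 0.31 and 0.24, and for IRF1 0.13, 0.17 and 0.12.

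The rest of the family was quiet. Of the 8 other CEACAM genes, 2 reached 1 CPM in epithelial cells: CEACAM19 at 19.3 CPM in CNT and 18.4 in 3CK (log2 ratio -0.07, -0.18 to 0.04) and CEACAM20 at 2.65 and 1.88 CPM (-0.49, -0.82 to -0.17). Neither reached 2-fold. Granulocyte members were at the limit of detection, with 1 and 2 UMIs of CEACAM3, none of CEACAM4, and 9 and 6 of CEACAM8. None of the 10 pregnancy-specific glycoprotein genes, the neighbouring branch of the family, reached 1 CPM. Blood-cell markers differed in level in the epithelial cells. The leukocyte gene PTPRC was near 0, at 0.236 and 0.0856 CPM, and FCGR3B had 0 UMIs in both libraries. By contrast, the 6 T and NK cell markers had a summed level of 125 CPM (CNT) and 54.8 CPM (3CK). CD3D alone among these 6 reached 1 CPM. The 9 neutrophil and myeloid markers summed to 18.1 and 17.3 CPM.

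Lists of related genes, chosen with earlier results of these data known, were read the same way in epithelial cells, where 8.48% of all genes tested were higher and 12.1% lower by 2-fold or more. Of 15 CEACAM1 partners and signalling genes, 12 were measured at 1 CPM or more, 3 were higher by 2-fold or more and none lower, with a median log2 ratio of 0.29. The 3 were LGALS9, the kinase LYN (1.51) and TLR4 (2.45). The galectin LGALS9, a ligand of the checkpoint receptor HAVCR2, was at 1.18 CPM in CNT and 60.9 in 3CK (5.69, interval 5.39 to 6.01). PTPN11, which encodes the phosphatase SHP2, had the lowest ratio (-0.19, -0.26 to -0.13).

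The genes listed for the GPI anchor differed little, with 1 of 29 higher by 2-fold, none lower and a median of -0.05. That gene was MPPE1, at 30.0 and 71.0 CPM (1.24), the lowest ratio was that of PIGZ (-0.93), and the most abundant, PGAP6, was at 121 and 96.3 CPM. Of the other GPI-anchored epithelial proteins, 3 of 29 were higher, a share close to that of all genes, and 8 were lower by 2-fold or more, with a median of -0.19. The interferon-induced tetherin BST2 had the highest ratio (23.8 to 745 CPM, 4.97) and LY6D the lowest (268 and 10 UMIs, -4.62), and CD24, the most abundant, was at 1093 and 636 CPM (-0.78).

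Among 11 genes of the apical glycocalyx, 3 were higher and 3 lower by 2-fold or more, with a median of -0.34. All 3 higher ones were transmembrane mucins, MUC4 (3.60), MUC1 (52.8 to 573 CPM, 3.44) and MUC13 (159 to 344 CPM, 1.11). LGALS4 had the lowest ratio (-2.18), and LGALS3, the most abundant, was at 2289 and 1808 CPM (-0.34).

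Genes of the mature colonocyte, the cell in which these proteins are known from normal colon, were mostly lower. Of 18 measured, 10 were lower and 5 higher by 2-fold or more, with a median of -1.17. PHGR1, the most abundant, went from 1129 to 299 CPM (-1.92), the fatty acid carrier FABP1 from 1007 to 139 CPM (-2.85), and the chloride exchanger SLC26A3 had the lowest ratio (-3.06). CEACAM7 belongs to this list and had its highest ratio, followed by PLAC8 (2.07). KRT20 was at 27.4 and 23.4 CPM (-0.23). Of the 18 genes, 12 were lower by any amount, and 6, CEACAM7 among them, shared the direction of the 4 members.

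Of 19 transcription factor genes listed as candidate regulators of CEACAM genes, 5 were higher by 2-fold or more and none lower, with a median of 0.65. IRF1, an interferon-induced activator, was both the most abundant and the highest (16.7 to 380.2 CPM, 4.51), and HNF4A was the lowest (40.1 to 24.3 CPM, -0.72). CDX2 had a log2 ratio of 0.05. Of 20 adhesion genes, ICAM1 alone was higher by 2-fold (16.3 to 799.6 CPM, 5.62) and NECTIN4 alone lower (-1.01), EPCAM was at 1097 and 959 CPM (-0.19), and the median was 0.24. All 20 cytokine-induced genes were higher by 2-fold or more (median 4.57), CXCL10 the most (12.47). CEACAM1 and CEACAM6 had smaller ratios than each of these 20 genes.

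Other marker lists moved with the treatment in the same epithelial cells. Of 8 hepatic markers 6 were lower by 2-fold or more and none higher (sum 98726 to 32940 CPM), of 9 mesenchymal markers 7 were lower (1573 to 840.4 CPM), and all 7 enterocyte markers were lower (5518 to 1972 CPM). Their part in the CEACAM ratios was not tested, beyond the values within TTR classes given above.

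Most surrounding genes did not reach 2-fold. Of 33 other genes with at least 1 CPM in epithelial cells whose midpoints lay between 500 kb before the first and 500 kb after the last member, a set chosen after seeing the data, 3 were higher and 2 lower by 2-fold or more, with a median log2 ratio of 0.07. That is near the 8.48% higher and not above the 12.1% lower among all genes tested in epithelial cells. The 3 were the lncRNAs LINC01480 (2.98) and AC243967.2 (0.670 to 3.75 CPM, 2.49), the latter overlapping CEACAM6, and the transcription factor gene POU2F2 (4.71 to 27.9 CPM, 2.56). CD79A (-2.18) and ERICH4 (-1.11) were lower. LIPE-AS1, which overlaps CEACAM1, was at 6.71 and 9.60 CPM (0.52). RPS19, an abundant ribosomal protein gene between CEACAM6 and CEACAM1, had -0.08. AC243967.2 had 51 and 263 UMIs against 19658 and 50791 for CEACAM6, and LIPE-AS1 had 511 and 673 against 2758 and 10487 for CEACAM1.

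**Figure D5:**
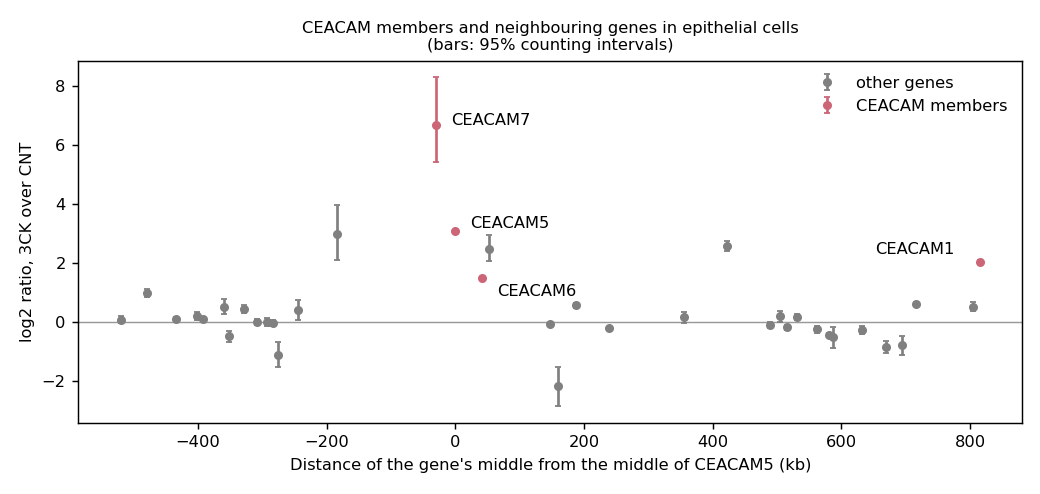
Log2 ratio of 3CK to CNT in epithelial cells (with 95% counting intervals) against the distance in kb of each gene's midpoint from that of CEACAM5, for the 4 members (red) and 33 neighbouring genes with at least 1 CPM (grey). The members lie at 1.49 to 6.68 and most neighbours near 0, with LINC01480, AC243967.2 and POU2F2 above 2.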

How the data were processed

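Single-cell 3′ libraries of untreated (CNT) and cytokine-treated (3CK) organoids were analysed from the deposited matrices of UMI counts per gene and barcode, not normalized by the authors. The counts come from Cell Ranger 7.1.0 and genome build GRCh38, per the submitters' processing notes, and for the annotation release and counting strand the entry is: not given in the sources used here. Gene names are those of the feature files, and 36366 of 36601 gene IDs matched a table of current names. PGAP6 was found by its ID (listed as TMEM8A).

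Barcodes with at least 500 genes and at most 20% mitochondrial UMIs were kept, a step that took out 412 and 306 CNT barcodes by the gene and mitochondrial limits and 52 and 175 from 3CK. Scrublet (scanpy 1.11.5) scores removed 0.8% per 1000 barcodes, 52 and 16. UMIs were summed over cells and divided by all UMIs (CPM). Sums have exact Poisson intervals, shares Clopper-Pearson intervals, and ratios an interval from the exact binomial limits of the 3CK part of the summed UMIs, all at 95%. A library at 0 was set to 3 UMIs, which gives a bound, and no ratio was formed with 3 UMIs or fewer in both. Cells were thinned without replacement to 5000 UMIs for shares and 10000 for correlations. Python 3.11.15, scipy 1.17.1, Biopython 1.88 and, for TMM factors, edgeR 4.0.16 in R 4.3.3 were used, and the ratio and thinning steps were tested on simulated data.

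Members and lists were chosen with earlier results of these data known. Named genes were the 4 members, other CEACAM genes at 1 CPM or more, of each list the most abundant and those with the largest and smallest ratio, and the 5 highest and 3 lowest correlations. LYN, TLR4, MUC1, MUC13, PLAC8, FABP1, KRT20, neighbouring genes and the genes followed by number of members detected were named after their values were seen or as markers. Values of 2 genes that this rule names are not reported here. Filters, doublet removal, scaling, weighting, class boundaries, thinning depth and leaving out the highest cells were varied.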

Additional observations from a re-analysis of the deposited data

How the results depend on the processing

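No paired analysis was possible because each group is 1 library. Of 80 alternative ratios of the members over all or epithelial cells, 80 kept their direction, as did 147 of 147 in the TTR classes. So did 32 of 32 differences of shares and 18 of 18 co-detection values. In the same order, 29, 47, 9 and 5 of these fell outside the counting interval of the main value. The alternatives reuse the same libraries, and the genes were chosen from this contrast, so the kept direction is no independent support. Over all cells, TMM scaling gave log2 ratios of 2.15 (CEACAM1), 3.19 (CEACAM5) and 1.61 (CEACAM6). Leaving mitochondrial, ribosomal and the 50 most abundant genes out of the total gave 1.96, 3.01 and 1.43. Equal weight per cell gave 2.22 for CEACAM1, 1.72 for CEACAM6 and 7.95 for CEACAM7. Without the highest cell of each library CEACAM5 was at 3.19, and without the 10 highest the 4 members were at 2.17, 3.78, 1.59 and 5.28.

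In epithelial cells, TMM scaling gave 1.52 for CEACAM6, and the reduced total gave 1.93, 2.96 and 1.37 for CEACAM1, CEACAM5 and CEACAM6. Equal weight gave 2.27 for CEACAM1 and 1.66 for CEACAM6. EPCAM of at least 5 per 10000 gave 2.12, 3.22 and 1.61 for CEACAM1, CEACAM5 and CEACAM6, and at least 1 gave 1.46 for CEACAM6. CEACAM5 was at 3.17 without the highest cell, and without the 10 highest the members were at 2.17, 3.77, 1.56 and 5.21. The reduced total and equal weight moved the median of all epithelial genes by -0.12 and -0.11. Over all cells, the median of the apical glycocalyx list turned from -0.30 to 0.076 when members under 10 CPM were left out.

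CEACAM7 at TTR over 500 gave no value with boundaries of 100 and 1000, since 0 CNT and 1 3CK UMIs remained. The alternatives with the highest cells left out and the marker ranges below were chosen after seeing the data. Depth limits CEACAM7 above all: 3 UMIs over all kept cells correspond to 0.0295 CPM (CNT) or 0.0327 CPM (3CK), and its CNT level of 6 UMIs lies just above. With 1 culture per group, differences between the libraries in culture, dissociation, capture or sequencing cannot be told apart from the treatment. In summed counts, a change in the share of cells that express a gene and a change per cell are only separated by the per-cell values given above.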

Other observations

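Within epithelial cells, 3 overlapping ranges of marker UMIs, set after the marker distributions were seen, gave further values. In the cycling range (at least 5 UMIs per 10000 of the cycling markers, 155 CNT and 73 3CK cells) CEACAM5 had 6 UMIs in CNT (1.66 CPM) and 662 in 3CK (183 CPM), 110.5-fold (50.5 to 302.2). CEACAM1 was at 21.5 and 147 CPM there, 6.80-fold (5.36 to 8.75), and CEACAM6 at 100.2 and 620.2 CPM, 6.19-fold (5.54 to 6.93). These cells were shallow, with medians of 1676 and 5015 UMIs, and 115 and 43 of them had under 10000 UMIs. At the CNT median a single marker UMI was enough to enter the range. Thinning left 40 and 37 of the cells, of which 0 and 7 had CEACAM5. For 0 of 40 the exact upper limit is 8.81% of cells with a UMI at this depth.

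The goblet range (at least 50 per 10000 of goblet markers, 273 and 101 cells) held the highest CEACAM6 and CEACAM5 levels of the 3 ranges in 3CK, 1276 and 605 CPM, against 469 and 86.3 CPM in CNT. Its thinned 3CK cells carried CEACAM6 in 77 of 84 (91.7%). In the enterocyte range (at least 50 per 10000, 338 and 99 cells) CEACAM6 was at 516 and 897 CPM, 1.74-fold (1.68 to 1.80), and CEACAM5 at 100.0 and 514 CPM, 5.14-fold (4.83 to 5.46). Cells can belong to more than 1 range, and each range is a stretch of a score, not a cell type. The goblet range is named for its list, whose most abundant gene in epithelial cells was AGR2, while MUC2 was low there, as given above. TTR in the goblet range was at 78817 CPM (CNT) and 36964 CPM (3CK).

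FABP1, a lipid carrier of absorptive cells, was at 625, 1480.5, 1926 and 2525 CPM in CNT cells with 0, 1, 2 and at least 3 members, unlike in 3CK. The antimicrobial protein LCN2 was at 513, 449, 540.3 and 1701 CPM over the same steps in 3CK. The barcodes that were neither epithelial nor mesenchymal (336 and 303) had CEACAM1 at 17.2 and 47.5 CPM and CEACAM6 at 20.1 and 53.5 CPM.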
